A study of Mus musculus with 22 samples.

Results

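The synaptic vesicle fusion machinery was taken as the protein-coding genes of the count table whose mouse symbols begin with Syt, Stx, Stxbp, Vamp, Snap, Syn, Rims or Cplx directly followed by a digit, or with Unc13, together with Baiap3. The rule found 67 members among 39056 genes and uses names only. Of the members, 59 had at least 500 counts over all libraries and reads in at least 3 of them, and were tested, in 1 fit with all 14072 genes that met the same filter. The 8 members below that filter were Vamp5 (282 counts over 22 libraries), Vamp9 (238), Stx11 (133), Unc13d (114), Syt15 (86), Cplx4 (51), Stx19 (7) and Syt8 (2). Vamp7 fits the rule but has no row in the table. Snap91 fits it by name alone, because it encodes a clathrin assembly protein, and was counted on its own.

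All 11 mice were males of 8 to 12 weeks on a C57BL/6J background that carried CaMKIIα-tTA and tetO-EGFP/Rpl10a. The CaMKIIα driver switches on a ribosomal subunit tagged with EGFP, and the study took it to act in excitatory pyramidal neurons. They were injected on 4 days with normal saline (Control, mice 1, 4 and 7), with ethanol up to 2 g/kg per day (EtOH, mice 2, 5, 8 and 9), or with the same ethanol together with the PARP inhibitor ABT-888 at 25 mg/kg on day 4 (EtOH + ABT-888, mice 3, 6, 10 and 11). The prefrontal cortex (PFC) of each mouse gave a TRAP library, from RNA pulled down with the tagged ribosomes, and a total-RNA library from the same lysate, which makes 22 libraries in 6 groups. Ribosomal engagement (RE) here means the level in TRAP relative to total-RNA. No group received ABT-888 without ethanol.

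Transmitter release is a membrane fusion event. The R-SNARE on the vesicle, a VAMP, zips into a bundle with the Q-SNAREs on the plasma membrane, a syntaxin and SNAP25, and SM proteins guide that assembly. Rims and Unc13 (Munc13) proteins dock and prime the vesicle at the active zone, complexins clamp and then help the primed bundle, synaptotagmins trigger fusion when Ca2+ binds, and synapsins tether the reserve vesicles. Many relatives in the same families (Stx4a, Snap23, Vamp3, Vamp8) serve constitutive secretion and glia or other non-neuronal cells instead.

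A TRAP library held between 6570957 and 22002618 counts and a total-RNA library between 22132534 and 32421392, and the members took 1.27 to 1.56% of the counts in TRAP and 1.45 to 1.73% in total-RNA. The cell type named for the pull-down was checked against marker genes. The glial lists were lower in Control_TRAP than in Control_total-RNA, with 6 of 6 called for astrocytes, oligodendrocytes and microglia each. The summed level of 6 markers of striatal projection neurons, however, was 7160 to 10782 normalized CPM (CPM, counts scaled to library size with TMM factors) in TRAP and 681 to 1496 in total-RNA. The excitatory cortical list went against the label, since 5 of its 6 genes were lower in Control_TRAP and Camk2a, the gene that lends its promoter to the driver, did not pass the test. The whole list summed to 2207 to 3269 CPM in TRAP and to 3040 to 4125 CPM in total-RNA, and its members Slc17a7, Neurod6, Tbr1 and Neurod2, chosen after the values were seen, to 134 to 580.1 and 1034 to 1353 CPM. The TRAP libraries are therefore called by their name and not by a cell type, and no part of any member's difference was assigned to these markers. In bulk libraries, fewer cells of a type and less RNA per cell cannot be told apart.

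The promoters of 5 genes are printed here because the genes they belong to had the smallest p-values among the members that changed with EtOH in total-RNA, as described further on. Each is the window of 300 bases around the RefSeq start, mostly upstream of it (build GRCm38.p6), 5′ to 3′ on the strand of the gene, and capitals mark the half-site of the cAMP response element, TGACG on either strand. Stxbp3 lies at chr3:108840453-108840752 on the minus strand, Stx1a at chr5:135023232-135023531 on the plus strand, Unc13a at chr8:71671708-71672007 on the minus strand, Stx4a at chr7:127841558-127841857 on the plus strand and Rims1 at chr1:22806109-22806408 on the minus strand. The Stx4a window falls inside the gene as annotated for mm10, whose first exon starts at 127824294.
Stxbp3: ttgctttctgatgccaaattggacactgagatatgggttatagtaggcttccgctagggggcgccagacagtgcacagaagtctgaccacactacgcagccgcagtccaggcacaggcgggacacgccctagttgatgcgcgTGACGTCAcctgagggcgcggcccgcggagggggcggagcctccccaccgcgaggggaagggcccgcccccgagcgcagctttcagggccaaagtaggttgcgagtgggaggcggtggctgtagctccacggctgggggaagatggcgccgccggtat
Stx1a: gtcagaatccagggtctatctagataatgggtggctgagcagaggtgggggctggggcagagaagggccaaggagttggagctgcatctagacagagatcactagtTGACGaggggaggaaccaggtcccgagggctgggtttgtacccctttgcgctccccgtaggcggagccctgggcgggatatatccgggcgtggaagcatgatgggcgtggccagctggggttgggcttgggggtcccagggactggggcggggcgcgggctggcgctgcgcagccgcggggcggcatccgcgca
Unc13a: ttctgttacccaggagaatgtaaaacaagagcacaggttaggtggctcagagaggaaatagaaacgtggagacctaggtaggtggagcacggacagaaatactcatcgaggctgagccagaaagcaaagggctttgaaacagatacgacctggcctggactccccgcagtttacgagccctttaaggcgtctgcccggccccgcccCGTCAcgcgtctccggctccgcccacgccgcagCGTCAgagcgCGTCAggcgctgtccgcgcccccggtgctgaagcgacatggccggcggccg
Stx4a: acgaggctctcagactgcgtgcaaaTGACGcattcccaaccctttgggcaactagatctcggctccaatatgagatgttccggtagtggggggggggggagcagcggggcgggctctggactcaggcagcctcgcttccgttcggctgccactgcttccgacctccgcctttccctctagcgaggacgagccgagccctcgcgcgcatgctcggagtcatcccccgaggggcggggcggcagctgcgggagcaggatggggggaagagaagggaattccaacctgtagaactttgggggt
Rims1: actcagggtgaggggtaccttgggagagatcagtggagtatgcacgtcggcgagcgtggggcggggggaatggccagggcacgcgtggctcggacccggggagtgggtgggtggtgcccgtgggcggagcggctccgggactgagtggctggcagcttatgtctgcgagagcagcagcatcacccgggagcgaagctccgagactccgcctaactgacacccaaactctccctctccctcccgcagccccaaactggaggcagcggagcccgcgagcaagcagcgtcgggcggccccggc
The half-site occurs at 2 positions in Stxbp3, where both belong to 1 full element (TGACGTCA), at 3 in Unc13a, at 1 in Stx1a and in Stx4a, and at 0 in Rims1. Over all 32851 RefSeq promoters of this length 20.8% hold the half-site and 1.79% the full element, and among the 63 promoters listed for 51 members the shares were 22.2% and 3.17%. The GC box (GGGCGG on either strand), a binding motif of Sp-family factors, was in all 5 printed promoters, in 68.3% of the members' promoters and in 35.7% of all promoters. The TATA box (TATAAA on either strand) was in 3.17% of the members' promoters and in 13.6% of all. These matches describe letters in a window and not bound sites.

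Snap25 had the highest mean level of all members in both RNA pools, though in TRAP its range overlapped that of Cplx2. Per exon length (RPKM, normalized CPM per kilobase of exon), Snap25 (the Q-SNARE that brings a pair of helices to the bundle) stood in Control mice at 588 ± 25.5 in total-RNA and 464 ± 25.7 in TRAP (SD, n = 3). Other high levels in total-RNA, in falling order, were those of Syt1, the fast Ca2+ sensor (309 ± 16.5), Cplx1 (215 ± 24.9), Cplx2 (201 ± 18.5), Syt11 (148 ± 7.15) and Syn1 (123 ± 14.6). The mean ± SD ranges of Cplx1 and Cplx2 overlapped. In TRAP other high means were those of Cplx2 (385 ± 98.7), Cplx1 (274 ± 42.9), Vamp2 (263 ± 31.7) and Syt1 (167 ± 12.8), and the ranges overlapped from Snap25 to Cplx2 and from Cplx2 to Vamp2. Against Snap23, the relative of Snap25 used in constitutive secretion, the ratio of Snap25 within a library was 230 to 305 per length in Control_total-RNA and 552 to 1031 in Control_TRAP.

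**Figure D1:**
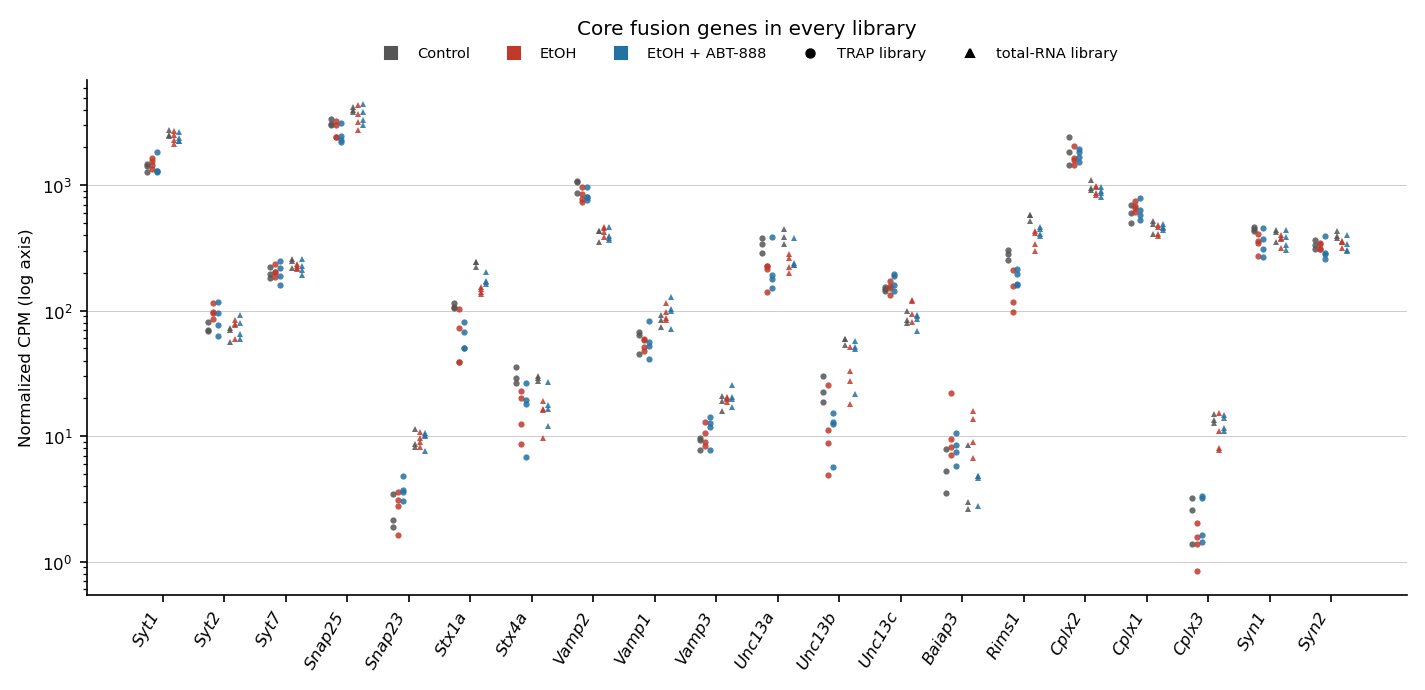
Normalized CPM (log axis) of 20 core members in each of the 22 libraries, circles for TRAP and triangles for total-RNA, coloured by treatment. Vamp2, Cplx2 and Unc13c sit higher in TRAP than in total-RNA in all 11 mice, while Syt1, Stx1a, Rims1, Unc13b, Snap23 and Cplx3 sit lower.

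In Control mice, where RE is free of any treatment, more members were low than high in TRAP. Against Control_total-RNA, 43 of 59 members passed an adjusted p-value of 0.05 in edgeR's quasi-likelihood test (Benjamini-Hochberg over all 14072 genes), 15 higher and 28 lower, where 59.9% of all genes passed, 29.5% higher and 30.4% lower. The median log2 fold change of the members was -0.18 and that of all genes was 0.02. Of the 43 members, 41 (95.3%) had TRAP and total-RNA libraries that did not overlap, beside 98.1% of all genes that passed. All 7 syntaxin-binding members, all 4 members of the SNAP25 family and all 5 VAMPs tested passed. Those of the SNAP25 family were all lower. Called members of both directions occurred among the VAMPs, synaptotagmins, syntaxins, syntaxin-binding members, priming genes, complexins and synapsins.

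Among the vesicle SNAREs, Vamp2, the main R-SNARE of forebrain synapses, was higher in TRAP and Vamp1, its relative, was lower. Vamp2 read 1064, 1076 and 861 CPM in Control_TRAP and 435, 433 and 354 in Control_total-RNA. The pools did not overlap, and the log2 fold change was 1.28 ± 0.12 (SE, adjusted p = 3.65e-06). Vamp1 read 67.2, 63.6 and 45.4 CPM in TRAP and 91.6, 85 and 74 in total-RNA (-0.53 ± 0.14, adjusted p = 0.00768). Per length, the ratio of Vamp2 to Vamp1 within a library was 42.3 to 50.6 in Control_TRAP and 12.7 to 13.6 in Control_total-RNA, and over the 3 treatments it was higher in TRAP in 11 of 11 mice. Vamp3 and Vamp8, which act in endosomal and constitutive fusion, were lower in TRAP by -1.08 ± 0.16 and -2.88 ± 0.48, the latter from levels of only 0.166 to 1.39 CPM in TRAP against 3.9 to 4.62. Without Control_TRAP mouse 1 the value for Vamp8 was -3.67.

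Stx1a, Snap25 and Snap23, Q-SNAREs of the plasma membrane, were lower in TRAP. Stx1a read 105, 107 and 115 CPM in Control_TRAP and 244, 243 and 224 in Control_total-RNA, so every TRAP library was lower (-1.14 ± 0.09, adjusted p = 1.09e-06). The strand setting of the counting is not given in the sources used here, so the level of a member that overlaps a gene on the opposite strand, such as Stx4a, is uncertain. Snap25 was lower in TRAP by -0.36 ± 0.09 and Snap23 by -1.91 ± 0.26, and Stxbp3, the SM protein of constitutive secretion, read 2.99 to 5.76 CPM against 15.5 to 16.9 (adjusted p = 1.25e-05). Stxbp2, a relative best known from exocytosis in blood and epithelial cells, was higher at 12.8 to 19.2 CPM against 5.74 to 7.6 (1.26 ± 0.19, adjusted p = 0.000172).

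Of the synaptotagmins, which include Ca2+ sensors and relatives that do not bind Ca2+, 6 were higher in TRAP and 4 lower of 15 tested. Syt6 showed the largest positive value of all members, with 239, 248 and 208 CPM in Control_TRAP and 44.9, 59.8 and 47.9 in Control_total-RNA (2.17 ± 0.12, adjusted p = 1.89e-07). Syt1 went the other way, with 1476, 1272 and 1430 CPM against 2733, 2531 and 2469 (-0.90 ± 0.10, adjusted p = 1.13e-05). Syt17, a synaptotagmin relative that lacks a transmembrane anchor, read 7.9, 7.26 and 10.9 CPM against 37.1, 34.4 and 43.7 (-2.15 ± 0.17, adjusted p = 1.26e-06). Syt2, the fast sensor of hindbrain synapses and of some interneurons, did not pass in Control, and the ratio of Syt1 to Syt2 was lower in TRAP in 11 of 11 mice. Syt7, a slow sensor with high Ca2+ affinity, was lower by a small amount (-0.28 ± 0.10, adjusted p = 0.0366), and this call was lost without mouse 1 or 7 in TRAP or mouse 1 or 4 in total-RNA (adjusted p up to 0.141).

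Of the 8 priming genes tested, 4 passed. Rims1, a scaffold of the active zone, read 304, 252 and 283 CPM in Control_TRAP and 579, 577 and 521 in Control_total-RNA (-1.01 ± 0.10, adjusted p = 5.12e-06). Unc13b was lower as well (18.6 to 29.9 CPM against 52.8 to 59.5, -1.27 ± 0.15), Unc13c was higher (142 to 155 CPM against 79.5 to 99, 0.75 ± 0.10), and Unc13a did not pass (-0.22 ± 0.12, adjusted p = 0.137). Complexins differed in sign: Cplx2 was higher (0.92 ± 0.16, adjusted p = 0.00039) as was Cplx1 (0.33 ± 0.12, adjusted p = 0.0377), and Cplx3, known from ribbon synapses and a few cortical neuron classes, was lower at 1.38 to 3.19 CPM against 12.6 to 15 (-2.55 ± 0.26, adjusted p = 8.43e-06). Syn1 did not pass and Syn2 was lower by -0.27 ± 0.09, although Syn2 shares its locus with Timp4 on the other strand. The call of Cplx1 was lost without mouse 1 or 4 in TRAP or mouse 1 or 7 in total-RNA (adjusted p up to 0.154), and that of Syn2 without mouse 1 in TRAP or mouse 1 or 7 in total-RNA (up to 0.101). Of 36 other genes of vesicle release fixed as a list, 20 passed, 7 higher and 13 lower, beside 59.9% of all genes, 29.5% higher and 30.4% lower. The smallest p-values in the list belonged to the vesicular GABA transporter Slc32a1 (2.52 ± 0.11), the Ca2+-binding Doc2b (3.21 ± 0.16) and the vesicle protein Sv2c (1.47 ± 0.09). Markers moved with these values, since 6 of 6 striatal markers were higher (median log2 fold change 3.11) and 6 of 6 markers each of astrocytes, oligodendrocytes and microglia lower. Of 6 markers of inhibitory neurons 3 were higher (Gad1, Gad2 and Slc32a1, which is also among the release genes) and 1 lower (Pvalb), and their sum was 1827 to 1913 CPM in Control_TRAP against 802 to 865 in Control_total-RNA. The part of these markers in the members' values was not tested.

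**Figure D2:**
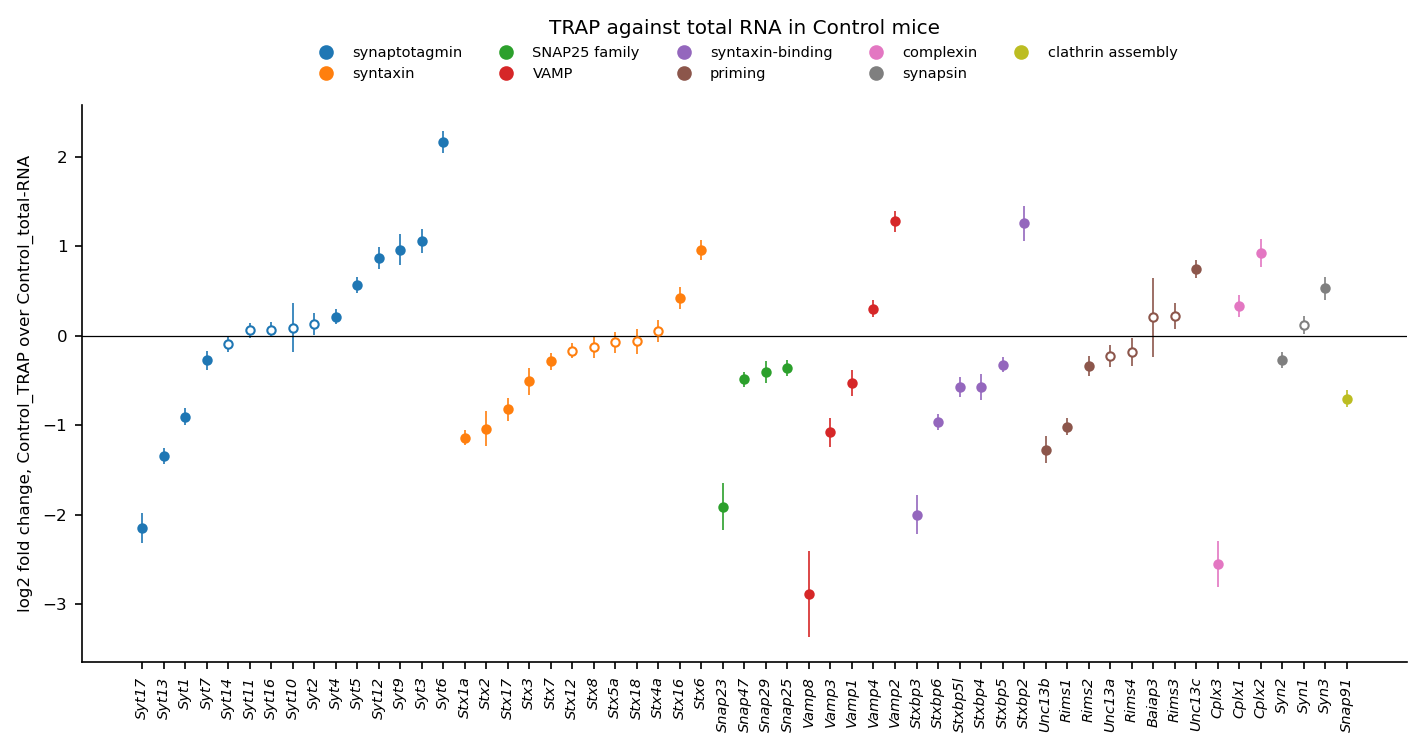
Log2 fold change of Control_TRAP over Control_total-RNA with its SE for 57 tested members, ordered by role, filled where the adjusted p-value is under 0.05 and open otherwise. The values run from -2.88 (Vamp8) to 2.17 (Syt6), and most families hold members on both sides of 0.

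The same paralogs stood apart under the treatments. In EtOH mice 34 members passed, 12 higher and 22 lower (50.7% of all genes, 24.3% higher and 26.5% lower), and in EtOH + ABT-888 mice 33 passed, 13 higher and 20 lower (41% of all genes, 19.5% higher and 21.5% lower). A set of 28 members passed in all 3 treatments, with 11 higher and 17 lower in TRAP each time, and 13 members passed in none. Of all genes 36% passed in each treatment, 16.8% higher and 19.2% lower each time, and 33.1% passed in none. Vamp2 was higher by 1.28, 0.92 and 1.05 in Control, EtOH and EtOH + ABT-888, Syt6 by 2.17, 1.75 and 2.17, and Unc13c by 0.75, 0.54 and 1.04. Stx1a was lower by -1.14, -1.21 and -1.50, Rims1 by -1.01, -1.36 and -1.22, and Cplx3 by -2.55, -2.89 and -2.46. Whether RE itself changed with treatment was tested as an interaction over all 22 libraries. No member passed for EtOH or for EtOH + ABT-888, where 0.0213% and 0% of all genes passed. DESeq2 and the likelihood ratio test also gave 0 members. They called 0.114% of all genes each for EtOH, and 0.0284% and 0.0426% for EtOH + ABT-888. In the quasi-likelihood test 1 member for each treatment had an unadjusted p-value under 0.05, beside 4.87% and 3.38% of all genes (Syt5 at 0.33 ± 0.15 for EtOH and Stx2 at 1.27 ± 0.43 for EtOH + ABT-888). The other members with the smallest p-values were Vamp2 (-0.36) and Stx8 (0.47) for EtOH and Rims3 (-0.59) and Syt13 (-0.71) for EtOH + ABT-888.

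Between EtOH and Control mice, Rims1, Unc13a, Stx1a and Stx4a were lower and Stxbp3 was higher in total-RNA, while the share of members that passed was close to that of all genes in both pools. Between EtOH_total-RNA (n = 4) and Control_total-RNA (n = 3), 11 of 59 members passed, 3 higher and 8 lower, beside 17.6% of all genes, 9.04% higher and 8.6% lower. Priming genes held 5 of the 11, with Rims1, Rims3, Unc13a and Unc13b lower and Baiap3 higher. Snap25, Syt1, Vamp2, the complexins and the synapsins did not pass.

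Rims1 read 579, 577 and 521 CPM in Control_total-RNA and 299, 338, 435 and 419 in EtOH_total-RNA, so that every EtOH mouse lay below every Control mouse (-0.58 ± 0.13, adjusted p = 0.0104). Unc13a, the main Munc13 of excitatory synapses, read 386, 444 and 337 CPM against 199, 223, 283 and 263, also without overlap (-0.68 ± 0.13, adjusted p = 0.00553), and its reads may include the neighbour Colgalt1 on the other strand. Unc13b read 52.8, 59.5 and 59.2 CPM against 33.3, 17.9, 27.2 and 51.1 (-0.82 ± 0.25, adjusted p = 0.0378), where mouse 9 stood just under the Control range and mouse 5 far below it. Rims3, a short Rim that lacks the Rab3-binding part, passed with a smaller change (-0.49 ± 0.14, adjusted p = 0.0295). Baiap3, a Munc13 relative of dense-core vesicle release, read 2.62, 2.97 and 8.55 CPM in Control and 13.7, 8.98, 6.72 and 15.8 in EtOH (1.24 ± 0.39, adjusted p = 0.0429), and it was the 1 called member whose groups overlapped, where 94.5% of all genes that passed did not overlap. Without Control mouse 7 the log2 fold change of Baiap3 was 2.01. The reads counted for Baiap3 may include the neighbour Tsr3 on the other strand. A list of hypothalamic and septal markers rose in the same comparison, with 4 of 6 genes called (summed level 179 to 276 CPM in EtOH_total-RNA against 122 to 167 in Control_total-RNA), and its part in the value of Baiap3 was not tested.

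Stx1a was the syntaxin with the firmest change. It read 244, 243 and 224 CPM in Control_total-RNA and 141, 136, 154 and 148 in EtOH_total-RNA (-0.71 ± 0.09, adjusted p = 0.000657). Stx4a, the syntaxin of constitutive and dendritic secretion, read 29.1, 30.3 and 27.7 CPM against 19.2, 9.74, 16.3 and 16.5 (-0.91 ± 0.19, adjusted p = 0.00659). Neither of these groups overlapped with its Control. Stxbp3 moved the other way, from 15.5, 16.9 and 16 CPM to 32.9, 37.8, 30 and 35.7 (1.08 ± 0.12, adjusted p = 0.000322), so each EtOH mouse lay above each Control mouse. Stxbp6, which binds syntaxin as an inactive partner (-0.38 ± 0.11, adjusted p = 0.034), and Syt17 (-0.64 ± 0.18, adjusted p = 0.0276) were lower, and Stx17, the syntaxin of autophagosome fusion, was higher (0.42 ± 0.13, adjusted p = 0.0476). Of the 36 other release genes 7 passed, 2 higher and 5 lower, beside 17.6% of all genes, 9.04% higher and 8.6% lower. They were led by the Rab3 effector Rph3a (-0.92 ± 0.13), the vesicle protein Syngr3 (-0.54 ± 0.11) and the Ca2+ sensor Doc2a (-0.45 ± 0.13). Microglial markers were lower in the same libraries (4 of 6 called, summed level 94.5 to 149 CPM against 247 to 259), and their part in these values was not tested.

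The calls in total-RNA depended on the fit. Stxbp3, Stx1a, Stx4a and Unc13a passed in each of the 7 fits that left out a library, and Rims1 in 5 of 7, but Syt17 passed in 3, Baiap3, Stx17 and Stxbp6 in 2, and Rims3 and Unc13b in 1. The count was 4 members without Control mouse 1 or 4 (6.7% and 6.24% of all genes) and 6 without Control mouse 7 or EtOH mouse 5 (8.71% and 11.6%). When all 22 libraries were fitted together, which called 1.07% of all genes, 0 of the 11 passed, with nearly the same fold changes and adjusted p-values from 0.104 (Stxbp3) upward, and DESeq2 did not call Baiap3 (adjusted p = 0.0859) or Unc13b (0.0998).

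**Figure D3:**
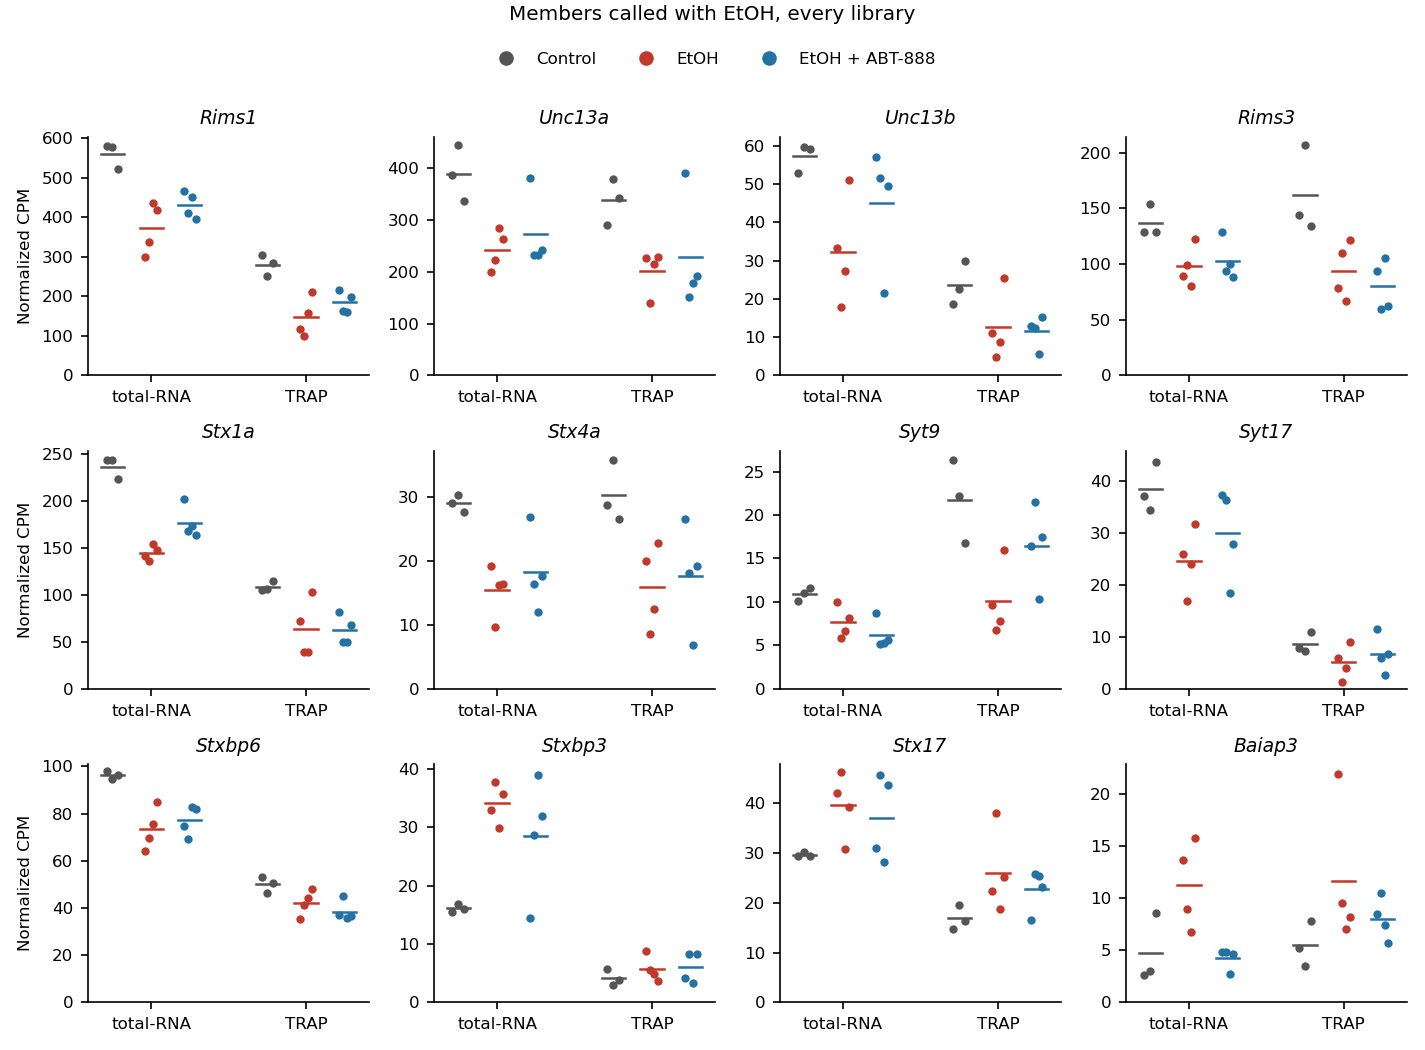
Normalized CPM of the 12 members called with EtOH in either pool, 1 point per mouse and a line at the mean, by treatment in total-RNA (left of each panel) and TRAP (right). For Stx1a, Rims1, Unc13a and Stx4a in total-RNA every EtOH point lies below every Control point, and the EtOH + ABT-888 mean lies between the other means. For Unc13a and Stx4a that mean is raised by mouse 3, which lies apart from the other EtOH + ABT-888 mice (Unc13a 381 CPM).

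In TRAP, 3 members passed between EtOH and Control, all lower, beside 5.24% of all genes and 2.47% lower ones. Rims1 read 304, 252 and 283 CPM in Control_TRAP and 117, 98.4, 158 and 212 in EtOH_TRAP (-0.92 ± 0.22, adjusted p = 0.0354). Unc13a read 290, 379 and 342 CPM against 226, 140, 214 and 228 (-0.72 ± 0.17, adjusted p = 0.0346). Syt9, a fast Ca2+ sensor of limbic and striatal neurons, read 26.4, 22.2 and 16.7 CPM against 9.61, 6.82, 7.81 and 16 (-1.10 ± 0.29, adjusted p = 0.0476). The groups did not overlap for any of the 3, nor for 98.6% of all genes that passed, and in Rims1 and Syt9 mouse 9 came nearest to the Control mice.

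Both pools of a mouse come from 1 lysate, so the 2 comparisons are not independent. Of the other members that passed in total-RNA, Stx4a differed in TRAP by -0.92 ± 0.28 (adjusted p = 0.0802), Stx1a by -0.77 ± 0.28 (0.131), Rims3 by -0.76 ± 0.22 (0.066), Unc13b by -0.91 ± 0.42 (0.211; -1.52 without mouse 9), Baiap3 by 1.08 ± 0.41 (0.141) and Stxbp3 by 0.46 ± 0.36 (0.475), all adjusted p-values of the quasi-likelihood test. Of the 36 other release genes 4 passed in TRAP, beside 5.24% of all genes, with Rph3a (-1.35 ± 0.22), Syngr3 (-0.74 ± 0.14) and Rab3c (-0.62 ± 0.16) lower and Erc2, an active zone scaffold, higher.

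**Figure D4:**
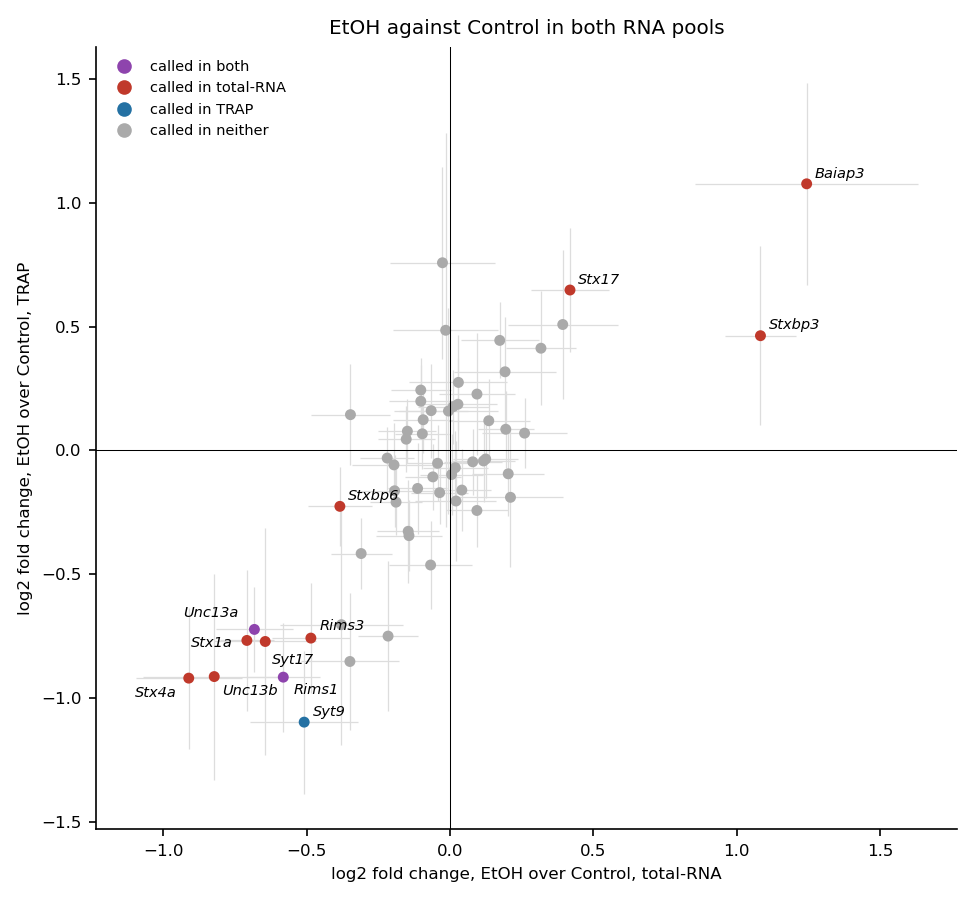
Log2 fold change of EtOH over Control in total-RNA (horizontal) and TRAP (vertical) for the 59 tested members, with SE bars. The members called in either pool lie in the lower left, apart from Stxbp3, Stx17 and Baiap3 in the upper right.

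EtOH_TRAP libraries differed among themselves in some cortical markers, and several members were highest and lowest in the same mice as these markers. The 4 cortical markers named above summed to 471, 565 and 580.1 CPM in Control_TRAP and to 383, 134, 201 and 533 in EtOH_TRAP for mice 2, 5, 8 and 9. Mouse 9, with the highest sum of the EtOH group, also had its highest Rims1, Unc13b, Stx1a (103 CPM against 39.1 to 72.2 in the other EtOH mice), Stx4a and Syt9. Mouse 5, with the lowest sum, had its lowest Rims1, Unc13a, Unc13b, Stx4a and Syt9. Between mice 2 and 8, Rims1 went against the marker sum, while Unc13a and Syt9 went with it. In total-RNA the sums were 1094 to 1317 CPM in Control and 1048 to 1209 in EtOH. The sum of the whole cortical list, with the more abundant Camk2a, was not lower in EtOH_TRAP. This sum was 2879, 2494, 3017 and 3269 CPM against 2421, 2643 and 2379 in Control_TRAP, and the groups overlapped. The median log2 fold change of the 6 genes in the list was, however, -0.94. Of these genes 1 passed, lower, and Camk2a differed by 0.47 ± 0.13 (adjusted p = 0.0541). Before adjustment, 5 of the 6 were below the 0.05 threshold, beside 23.1% of all genes. Without mouse 9, 9 members passed in TRAP (the 3 above with Rims3, Stx1a, Stx4a, Stxbp4, Syt13 and Unc13b), where 11% of all genes passed. Without mouse 2 only Unc13a passed (4.31% of all genes), without mouse 8 only Syt6 (4.02%), and without mouse 5 or any of Control mice 1, 4 and 7 the count was 0 (0.597% to 2.64%). The hypothalamic and septal list summed to 178 to 320 CPM in EtOH_TRAP against 163 to 176 in Control_TRAP, with 0 of its 6 genes called. The part of either list in the EtOH values was not tested.

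**Figure D5:**
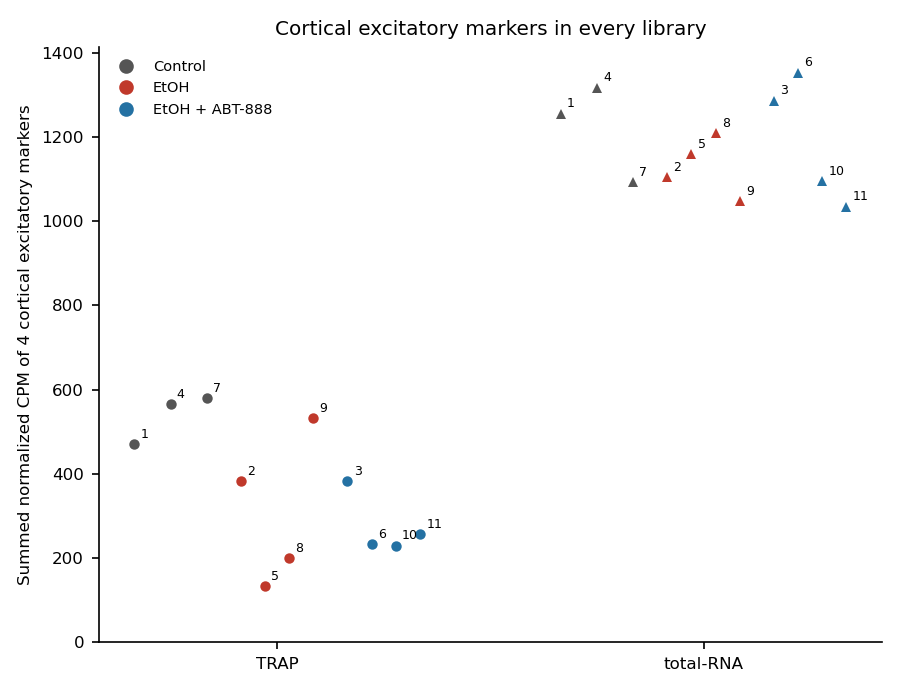
Summed normalized CPM of Slc17a7, Neurod6, Tbr1 and Neurod2, cortical excitatory markers, without the more abundant Camk2a, in each library, with the number of the mouse beside its point. The TRAP libraries lie between 134 and 580.1 and the total-RNA libraries between 1034 and 1353, and among EtOH_TRAP mouse 9 alone lies within the range of Control_TRAP.

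When ABT-888 was added to EtOH, no member passed against Control. Both treatments are set against the same Control mice, so their values are given side by side. In total-RNA 0 of 59 members passed in the quasi-likelihood test (0.263% of all genes) and 9 had an unadjusted p-value under 0.05 (15.9% of all genes). The exactTest and DESeq2 each called 3 members (Rims1, Stx1a and Syt9, all lower), beside 3.87% and 4.41% of all genes. Stx1a read 203, 168, 174 and 164 CPM in EtOH + ABT-888_total-RNA, below the Control mice and above every EtOH mouse, with a log2 fold change to Control of -0.42 ± 0.10 (adjusted p = 0.109) beside -0.71 with EtOH alone. Rims1 read 466, 410, 450 and 395 CPM (-0.37 ± 0.10, adjusted p = 0.119), and every mouse was again below Control. The groups did not overlap in 17% of all genes either. Syt9, at 8.75, 5.22, 5.24 and 5.57 CPM against 10.1 to 11.6 in Control, differed by -0.82 ± 0.21 (adjusted p = 0.116) beside -0.51 ± 0.19 with EtOH alone. Microglial markers summed to 85.6 to 199 CPM in the same libraries against 247 to 259 in Control_total-RNA, with 0 of 6 genes called. Of the 6 excitatory cortical genes 1 passed, lower. The part of either list in these values was not tested.

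Mouse 3 stood apart in this group. Its Unc13a (381 CPM against 232, 233 and 241 in mice 6, 10 and 11), its Stx4a (26.9 against 12 to 17.7) and its Stxbp3 (14.5 against 28.6 to 39.1) lay at or near the Control values. Without mouse 3, 7 members passed in total-RNA (Rims1, Rims3, Stx1a, Stx4a, Stxbp3, Syt9 and Unc13a), where 6.18% of all genes passed. With it, the log2 fold changes to Control were -0.52 ± 0.18 for Unc13a, -0.67 ± 0.23 for Stx4a and 0.83 ± 0.27 for Stxbp3.

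In TRAP likewise 0 members passed against Control (0.476% of all genes), with 10 at an unadjusted p-value under 0.05 (12.1% of all genes). The exactTest and DESeq2, which called 2.26% and 2.98% of all genes, each called 5 members (Rims1, Rims3, Stx1a and Syt13 lower, Stx2 higher). Rims3 read 93.7, 59.7, 106 and 62.6 CPM against 144, 207 and 134 (-0.99 ± 0.23, adjusted p = 0.0863), Stx1a 81.8, 50.4, 50.2 and 68.1 against 105, 107 and 115 (-0.79 ± 0.19, adjusted p = 0.102), and Rims1 216, 163, 161 and 198 against 252 to 304 (-0.59 ± 0.15, adjusted p = 0.13). None of these groups overlapped with Control, and neither did those of 14% of all genes. Unc13a in mouse 3 (389 CPM) lay above all Control mice while mice 6, 10 and 11 (151, 178 and 192) lay below them. Without mouse 3, 5 members passed (Rims1, Rims3, Stx1a, Syt13 and Unc13a; 2.65% of all genes) and without mouse 10 Rims3 alone (1.26%). The 4 cortical markers summed to 383, 234, 229.6 and 257 CPM in mice 3, 6, 10 and 11, all under the Control range, whereas the whole list summed to 2383, 2207, 3212 and 2577 CPM, on both sides of it. Of its 6 genes 2 passed, lower (median log2 fold change of the list -1.02), beside 0.476% of all genes. The oligodendrocyte list summed to 296 to 1373 CPM against 314 to 413 in Control_TRAP, with 0 of its 6 genes called. The part of either list was not tested. Of the other release genes, Rph3a (-1.06 ± 0.18) and Cadps2, a priming factor of dense-core vesicles (-1.13 ± 0.21), passed in TRAP and 0 of 36 in total-RNA, beside 0.476% and 0.263% of all genes.

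The direct test of ABT-888 on top of EtOH called 0 members in either pool (0% of all genes in both), with 1 member in TRAP and 2 in total-RNA at an unadjusted p-value under 0.05, beside 0.966% and 1.91% of all genes. In TRAP, where exactTest and DESeq2 also called 0, the differences with the smallest p-values were 0.71 ± 0.32 for Syt9, 0.33 ± 0.22 for Rims1 and 0.55 ± 0.36 for Stxbp4. In total-RNA Stx1a differed by 0.29 ± 0.11, Unc13c by -0.31 ± 0.15 and Baiap3 by -1.40 ± 0.28, each with an adjusted p-value of 0.99995 in the quasi-likelihood test. Baiap3 read 4.8, 4.84, 2.75 and 4.65 CPM with ABT-888 against 6.72 to 15.8 without it, so the groups did not overlap, as in 1.36% of all genes. The exactTest and DESeq2 each called Baiap3 as the 1 member (adjusted p = 0.0219 and 0.00599), beside 0.0142% of all genes. The hypothalamic and septal list summed to 137 to 174 CPM in EtOH + ABT-888_total-RNA and to 179 to 276 in EtOH_total-RNA, and its part was not tested. The intermediate values of Rims1 and Stx1a with ABT-888 in total-RNA are therefore not shown to differ from those with EtOH alone.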

How the data were processed

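Total RNA and TRAP RNA of the PFC were sequenced after ribosomal RNA depletion, and per the labels the authors aligned reads to mm10 with STAR and deposited raw counts per gene from featureCounts, without normalization. Versions, strand setting and the treatment of reads with several places are not given in the sources used here. Symbols, exon lengths and overlaps came from GENCODE for mm10 (38872 of 39056 genes found), and promoters from RefSeq. The fits used edgeR 4.0.16 (R 4.3.3), a filter of 500 counts in total and reads in 3 libraries, TMM factors, and glmQLFTest with Benjamini-Hochberg adjustment over 14072 genes, fitted to the groups compared, or to all 22 libraries for the interaction. Normalized CPM carry mean ± SD or each mouse's value, and fold changes carry the SE. Replicates are mice. The tests were tested on simulated data. The library titles name no mouse, so both libraries with 1 number were taken to come from 1 mouse. Their deviations from the group means correlated in all 11 pairs (r = 0.142 to 0.698). Libraries of a group differed by more than counting noise in all 30 pairs.

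Alternatives were exactTest (the study's pairwise test), the likelihood ratio test for the interaction, DESeq2 1.42.0, RLE factors, no filter, a single fit over all libraries, a replicate block and leaving out each library. The members, lists and rules for named genes were chosen with earlier results of these data known. Named were core members, called members or those with the smallest p-values, and in RE comparisons the largest fold changes without overlap. The study's qRT-PCR data were not used here, and a few genes are not reported by name.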

Additional observations from a re-analysis of the deposited data

Results flagged for a closer look

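In 12 of 168 groups of 4 mice, taken over the named members and the marker lists, the highest or lowest mouse stood apart from the other mice by most of the group's range, where chance gives about 1 in 20. In EtOH_TRAP these were the highest Baiap3 (21.9 normalized CPM) and the lowest Unc13a (140), together with the highest summed level of the endothelial markers (30.1). In EtOH_total-RNA they were the lowest Stxbp2 (6.07) and the lowest Syn2 (317). In EtOH + ABT-888_TRAP they were the highest Syt1 (1841) and the highest Vamp8 (2.49). In EtOH + ABT-888_total-RNA they were the lowest Baiap3 (2.75), the lowest Snap23 (7.57), the highest Syt9 (8.75), the highest Unc13a (381) and the highest summed level of the hypothalamic and septal markers (174). The Unc13a and Syt9 values both belong to mouse 3. Leaving it out raised the members called against Control in total-RNA from 0 to 7, and the share of all genes called from 0.263% to 6.18%. None of these values was removed, and their causes were not tested.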

How the results depend on the processing

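The counts of called members in RE changed within 1.5 times under each alternative except that RE in Control fell from 43 to 28 members, and from 59.9% to 42.8% of all genes, in a single fit over all 22 libraries. With the mouse as a replicate block the paired counts were 44, 37 and 39 members in Control, EtOH and EtOH + ABT-888, and 0 for both interactions, beside 62.5%, 58.8% and 54.3% of all genes in RE and 0.0995% and 0% in the interactions. It lost no call and gained 1, 3 and 6 in RE, among them Snap25 in EtOH (adjusted p = 0.0148, 0.108 without the block) and Unc13a in EtOH + ABT-888 (0.0343 and 0.510). EtOH in TRAP gave 3 members in the reported fit, 10 without the low-count filter and 6 each with DESeq2 and exactTest, where 5.24%, 4.62%, 10.8% and 9.75% of all genes passed, and 4 in the single fit (8.46%), where Unc13a was not called (adjusted p = 0.0716). EtOH + ABT-888 in TRAP gave 0, 4 without the filter, 5 each with DESeq2 and exactTest and 2 in the single fit (0.476%, 1.39%, 2.98%, 2.26% and 2.86% of all genes). EtOH in total-RNA gave 11 and 0 in the single fit (17.6% and 1.07%). EtOH + ABT-888 in total-RNA gave 0, 2 without the filter and 3 each with DESeq2 and exactTest (0.263%, 1.8%, 4.41% and 3.87%), and against EtOH 0 and 1 each (0% and 0.0142% each). The cause of these shifts was not tested. Leaving out each library in turn gave 36 to 41, 29 to 34 and 28 to 32 members for RE in Control, EtOH and EtOH + ABT-888 (52.5% to 59.6%, 43.6% to 50.3% and 32.3% to 42.2% of all genes). It gave 0 to 9 and 0 to 5 for EtOH and EtOH + ABT-888 in TRAP (0.597% to 11% and 0% to 2.65%), and 4 to 11 and 0 to 7 in total-RNA (6.24% to 25.7% and 0% to 6.18%). EtOH + ABT-888 against EtOH stayed at 0 members (0% of all genes), as did the interactions of EtOH (0.00711% to 0.0426%) and of EtOH + ABT-888 (0% to 0.00711%). With 3 or 4 mice per group, and TRAP libraries of lower depth than total-RNA, a missing call does not show that levels were alike. The p-values measure the spread between mice of 1 experiment.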
